A study of Mus musculus with 11 samples.

Results

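Platelet-derived growth factor (PDGF), vascular endothelial growth factor (VEGF) and angiopoietin signalling was examined through 10 genes chosen by name: the ligand genes Pdgfa, Pdgfb, Pdgfd, Vegfa, Angpt1 and Angpt2, and the receptor genes Pdgfra, Pdgfrb, Kdr and Tek. The choice was made with earlier results of these data known. All 10 were found among the 53465 genes counted, and all 10 were among the 17093 genes that passed the low-count filter. The RNA came from cells of the medial prefrontal cortex (mPFC) that express the corticotropin releasing factor receptor CRF1, with the aim of asking how withdrawal from chronic ethanol alters their transcriptome. GFP-positive live cells were sorted by flow cytometry from male CRF1:GFP reporter mice, 1 mouse per library, and 160 pg of RNA from each was amplified with the SMARTseq HT kit.

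Of the 11 mice, 6 were naïve and 5 were withdrawn, and all carried the CRF1:GFP reporter and were over 10 weeks old. Withdrawn mice received injections of ethanol with pyrazole, which slows ethanol clearance, and intermittent ethanol vapor for 5 to 6 weeks, and were then abstinent for 5 to 8 days. Naïve mice received pyrazole and air, so both groups had pyrazole. Mice were grouped by the treatment label, with which the titles accord. The source name of 3 withdrawn mice (withdrawn 3, 4 and 5) reads control, and the series text gives 5 control and 6 ethanol animals, so results are also given without these 3 mice. The suspension passed through a density gradient prepared for neurons, and the gates then used GFP and the dyes DAPI and DRAQ5, with no further neuronal marker.

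The PDGF, VEGF and angiopoietin families all signal through receptor tyrosine kinases. PDGF ligands act on receptors found in the brain mostly on oligodendrocyte precursors (Pdgfra), on pericytes and smooth muscle cells (Pdgfrb) and on fibroblasts of the meninges and vessel walls (both), whereas endothelial cells carry the VEGF receptor Kdr and the angiopoietin receptor Tek. Angpt1 activates Tek and stabilises vessels, whereas Angpt2 is a context-dependent antagonist of Tek that is released by activated endothelium.

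Across the 11 mice the receptor genes and some of the ligand genes varied in shared patterns, in which Pdgfd moved with Pdgfra, and Tek with Kdr. The promoter sequences of these 4 genes are shown, from RefSeq on GRCm38.p6, as the bases just before the RefSeq start of transcription, 5′ to 3′ on the strand of the gene. For Pdgfd and Pdgfra that start lies upstream of the gene start used elsewhere here (6168584 and 75152292), which comes from a GENCODE annotation. Capitals mark matches to any of the motifs searched on both strands, which were the hypoxia response element core ACGTG, the GC box GGGCGG, the TATA box TATAAA and the ETS core CCGGAA.
Pdgfd, chr9:6168236-6168485, plus strand: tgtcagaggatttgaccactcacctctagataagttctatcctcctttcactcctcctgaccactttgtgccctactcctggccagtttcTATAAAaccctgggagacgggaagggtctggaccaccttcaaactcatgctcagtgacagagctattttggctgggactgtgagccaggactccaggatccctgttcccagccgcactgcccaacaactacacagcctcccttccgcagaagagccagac
Pdgfra, chr5:75152001-75152250, plus strand: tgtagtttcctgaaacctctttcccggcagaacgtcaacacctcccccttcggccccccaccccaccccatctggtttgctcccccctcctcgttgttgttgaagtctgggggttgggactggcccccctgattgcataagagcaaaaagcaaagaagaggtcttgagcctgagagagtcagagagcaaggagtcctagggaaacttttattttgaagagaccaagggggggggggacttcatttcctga
Tek, chr4:94739039-94739288, plus strand: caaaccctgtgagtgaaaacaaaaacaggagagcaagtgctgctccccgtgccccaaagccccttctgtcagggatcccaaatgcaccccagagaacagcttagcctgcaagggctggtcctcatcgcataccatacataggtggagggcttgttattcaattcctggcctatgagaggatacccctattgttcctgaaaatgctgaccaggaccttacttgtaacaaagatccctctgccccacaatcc
Kdr, chr5:75978459-75978705, minus strand: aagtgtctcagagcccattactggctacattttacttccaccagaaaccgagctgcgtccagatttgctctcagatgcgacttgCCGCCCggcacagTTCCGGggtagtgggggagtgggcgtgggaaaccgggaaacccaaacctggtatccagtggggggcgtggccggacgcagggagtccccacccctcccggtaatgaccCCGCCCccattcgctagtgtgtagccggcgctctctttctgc
Within Pdgfd's 250 bases there was 1 match, a TATA box at position -160, counted back from -1 at the last base shown, a motif held by 12.4% of the 32851 promoters in the table. The Kdr sequence, which stops at 247 bases because the annotated gene begins there, held 2 GC boxes, the nearer at -42, and 1 ETS core at -150 on the same count, motifs held by 32.7% and 12.0% of all promoters. None of the motifs was found in the Pdgfra and Tek windows, and the hypoxia response element core, held by 16.6% of promoters, was in none of these 4 sequences. The base composition of Kdr was 61.5% G and C, against 51.2% for Tek, 53.6% for Pdgfd, 54.4% for Pdgfra and a median of 52.4% over all promoters. Neither co-varying pair shared a match to these motifs, and the part of the promoters in the co-variation was not tested. Vegfa, the classical hypoxia-inducible gene of the group, is shown beside them for comparison, since it was measured in every mouse and belonged to neither pair.
Vegfa, chr17:46032378-46032627, minus strand: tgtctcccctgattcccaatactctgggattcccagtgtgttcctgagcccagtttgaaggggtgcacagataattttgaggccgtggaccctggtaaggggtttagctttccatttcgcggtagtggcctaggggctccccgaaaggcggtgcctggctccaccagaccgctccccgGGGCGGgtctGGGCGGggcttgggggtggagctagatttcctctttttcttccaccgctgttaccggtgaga
The Vegfa window held 2 GC boxes, the nearer at -62, no hypoxia core, and 59.2% G and C. The RefSeq start of Vegfa too lies upstream of the annotated gene. Only the bases shown were searched, so a hypoxia core farther from the start of any of these genes would have been missed.

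Counts on genes ranged from 7351567 to 22244869 per library, so that 3 counts, taken as the floor of detection, corresponded to 0.14 to 0.369 CPM, the counts on a gene scaled to library size by edgeR's trimmed mean of M-values. This floor covers counting error only. The library of naïve 5 stood apart, with 15585 genes detected against up to 31830 in the others, and it had no count for 6 of the 10 genes (Pdgfd, Pdgfra, Pdgfrb, Angpt1, Tek and Kdr). Withdrawn 4 stood apart too, with the fewest counts on genes (7351567), the most genes detected (31830), the largest share of reads outside exons (48.06%, followed by 39.6% in withdrawn 2, against 5.77 to 31.49% elsewhere) and the lowest sum of glutamatergic neuron markers (1900.8 CPM). It held the highest level of Pdgfd, Pdgfra, Pdgfrb, Angpt1 and Tek of all mice, and the part of these library properties in the results was not tested. Pdgfra and Tek also had no count in withdrawn 2, and Tek none in withdrawn 1. At least 10 counts were found in all 11 mice for Pdgfa, Pdgfb and Vegfa, in 10 for Angpt1, in 9 for Pdgfd and Pdgfra, in 8 for Kdr, in 7 for Angpt2 and Tek, and in 6 for Pdgfrb. Crhr1, the gene of CRF1, was at 92.7 ± 21.5 CPM in naïve mice (SD, n = 6) and 89.3 ± 33.6 CPM in withdrawn mice (SD, n = 5), with p = 0.732 by a two-sided exact permutation test over 462 splits.

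Markers of other cells were present in the sorted samples and differed between mice. The summed level of 10 fibroblast markers (such as Col1a1 and Dcn) was 14.4 to 84.8 CPM in naïve mice, and 1616.9, 42.3, 881, 1338.1 and 324 CPM in withdrawn 1 to 5. The sum of 10 endothelial markers (such as Cldn5 and Cdh5) was 846, 781, 181, 102, 88.7 and 1086.6 CPM in naïve 1 to 6, and 204 to 268 CPM in withdrawn mice other than withdrawn 4, which had 1170.7 CPM. Mural cell markers followed the endothelial ones, with 0.813 to 181 CPM in naïve mice and 4.95 to 185 CPM in withdrawn mice, highest in naïve 6 and withdrawn 4. The summed astrocyte markers had a median of 68.3 CPM in naïve and 261 CPM in withdrawn mice, the microglial markers of 19.5 and 41.8 CPM, and the glutamatergic neuron markers ranged from 1900.8 to 4457 CPM over all mice. Naïve 5 had counts for 2 of the 10 fibroblast, 6 of the 10 endothelial and 4 of the 10 mural markers, with Col1a1, Dcn, Cldn5 and Cdh5 at 0. All 8 of the fibroblast markers that passed the filter were higher in withdrawn mice (7 of them at an unadjusted edgeR p under 0.05), with a median log2 fold change of 3.70. Slc22a6 among them, with no count in 4 of 6 naïve mice, passed the filter only through its withdrawn counts, so its direction was partly fixed. Lum and Igf2, which did not pass, had lower means in withdrawn mice (0.91 and 0.0916 CPM) than in naïve mice (1.36 and 0.468 CPM). None of the 10 endothelial and none of the 7 mural markers tested reached an unadjusted p under 0.05. In bulk samples of this kind, fewer cells of a type and less RNA per cell cannot be told apart.

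No member of the PDGF, VEGF and angiopoietin group was called in the comparison of withdrawn with naïve mice, for which edgeR's quasi-likelihood test was used and a call needed both an adjusted p no higher than 0.05 and a log2 fold change larger in size than 0.6. Across all genes that test called 1 of 17093 (0.00585%), so that the count of 0 of 10 is close to the background. At an unadjusted p under 0.05 stood 3 of the 10 (Angpt2, Pdgfd and Pdgfrb), all with higher levels in withdrawn mice, against 7.22% of all tested genes in either direction and 5.00% in that direction. Of these, Angpt2 and Pdgfrb passed the filter only through their withdrawn counts, so their direction was partly fixed. The 10 genes were also chosen with earlier results of these data known, so the shares describe the list and are no test of it. DESeq2, the tool of the study's methods, called 2 of the 10, Angpt2 and Pdgfd, both higher in withdrawn mice, against 1.66% of 21849 genes. In counts simulated with the dispersions of these data, 200 genes were changed by a log2 value of 3 in size. There DESeq2 recovered 145 of them with 57 false calls, and edgeR 116 with 5 false calls. The simulated counts followed edgeR's own dispersion estimates over the 17093 filtered genes, whereas DESeq2 was run on the real data without that filter. The simulation therefore cannot judge the calls of Angpt2 and Pdgfd. The median log2 fold change of the 10 genes was 0.70, with 6 above and 4 below 0, and the median of all tested genes was 0.02.

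**Figure D1:**
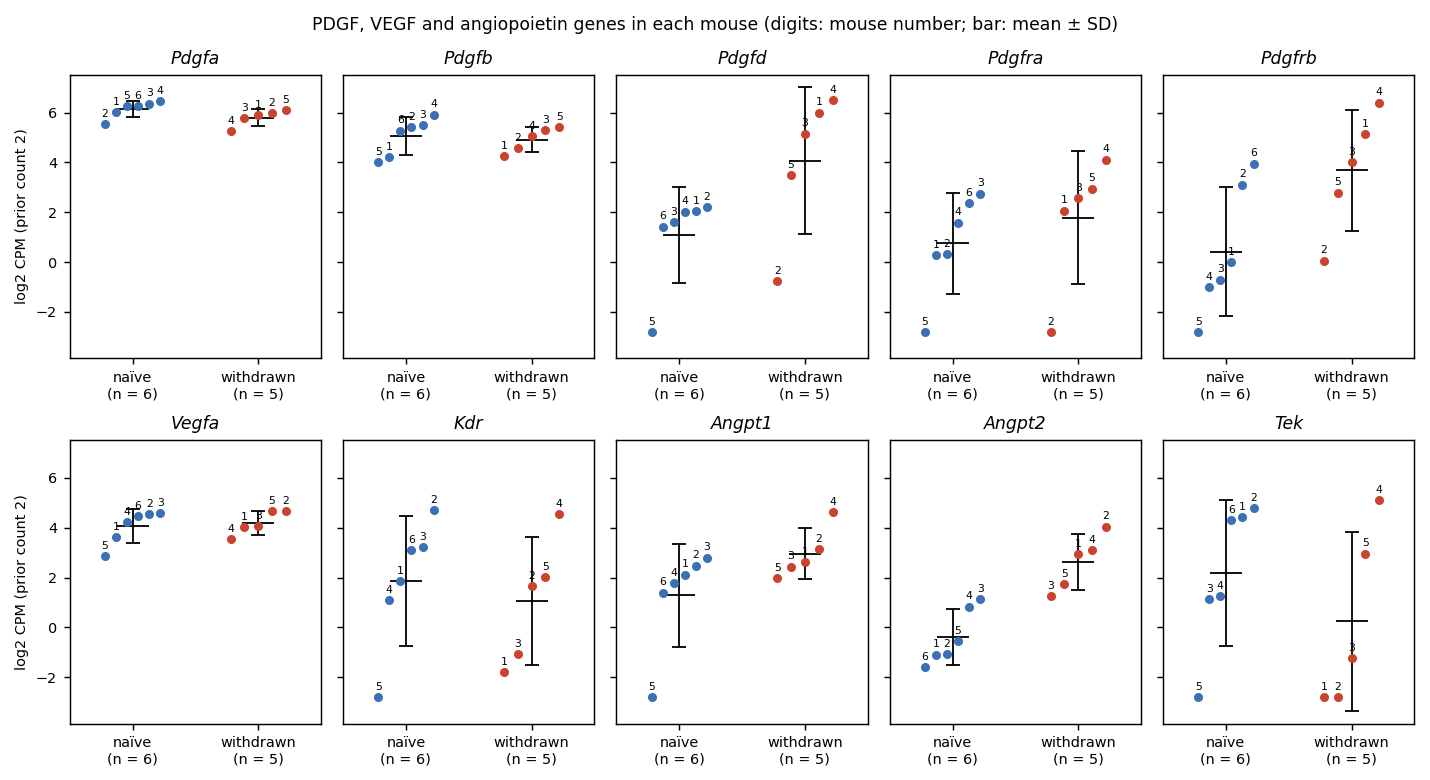
Level of each of the 10 genes in every mouse as log2 CPM (prior count 2), with the naïve group (6 mice) beside the withdrawn group (5 mice) in each panel; digits are mouse numbers and bars the mean ± SD. Angpt2 separates the groups completely (0.185 to 2.06 against 2.24 to 16.3 CPM), Pdgfd does so in 4 of 5 withdrawn mice, and the groups overlap for the other 8 genes.

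Among the PDGF ligands, Pdgfd stood out for its range in withdrawn mice. Pdgfd, which lies at chr9:6168584-6378850 on the plus strand of GRCm38, encodes a ligand that is activated by proteolysis and binds the receptor encoded by Pdgfrb. In naïve mice its level was lowest at 0, with a median of 3.40 and a maximum of 4.50 CPM. Withdrawn 1 to 5 had 64.0, 0.448, 35.5, 89.8 and 11.1 CPM. The highest naïve mouse was therefore exceeded by 4 of 5 withdrawn mice, whereas withdrawn 2 lay below every naïve mouse but naïve 5, which had no count. Group means were 2.97 ± 1.63 CPM (SD, n = 6) and 40.2 ± 37.0 CPM (SD, n = 5), which rested on 0 to 82 counts per naïve mouse and 4 to 889 per withdrawn mouse. The fitted log2 fold change was 3.75 (SE 1.01, edgeR adjusted p = 0.256), and DESeq2 gave 3.82 (SE 0.96, adjusted p = 0.00901). Without withdrawn 2 the log2 fold change was 4.06 with an edgeR adjusted p of 0.0251, and the groups no longer overlapped. With that mouse kept, Pdgfd passed in edgeR when no low-count filter was applied (3.72, adjusted p = 0.0489). Without the 3 mice with conflicting labels, which leaves withdrawn 1 and 2, it was 3.42 (adjusted p = 0.789). The mice with high Pdgfd were those with high fibroblast marker sums, and withdrawn 2 was low in both; the part of this in the Pdgfd difference was not tested.

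Pdgfa and Pdgfb, the classical PDGF chains, varied less between mice than Pdgfd did. Pdgfa (chr5:138976014-138997370, minus strand) is made by neurons and astrocytes and is a mitogen for oligodendrocyte precursors. It ranged from 46.1 through a median of 76.2 to 87.4 CPM in naïve mice, and was 59.0, 63.6, 55.3, 38.0 and 68.0 CPM in withdrawn 1 to 5. Withdrawn 4 lay below all naïve mice, and the other 4 withdrawn mice lay within the naïve range. The means of 72.3 ± 14.8 (SD, n = 6) and 56.8 ± 11.5 CPM (SD, n = 5) gave a log2 fold change of -0.35 (SE 0.21, edgeR adjusted p = 0.796). Of its 3119 exon bases, 813 are shared with the antisense gene 6330403L08Rik, and reads from the pair cannot be told apart without strand.

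Pdgfb (chr15:79995874-80014977, minus strand), the ligand with which endothelium recruits pericytes, had 15.8, 40.7 and 60.6 CPM as the lowest, median and highest naïve values. The withdrawn values of 18.7, 23.6, 39.1, 33.3 and 43.0 CPM all fell within that range. Its log2 fold change was -0.22 (SE 0.36, edgeR adjusted p = 0.949), from 36.8 ± 17.0 (SD, n = 6) to 31.6 ± 10.2 CPM (SD, n = 5). Both genes had log2 fold changes below 0 under all 20 alternative settings, from -0.45 to -0.23 for Pdgfa and from -0.85 to -0.02 for Pdgfb, and the groups were not distinguished by any of them.

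The PDGF receptors were low in most naïve mice. Pdgfrb (chr18:61045150-61085061, plus strand), the receptor of pericytes and other perivascular cells, had 0, 0.664 and 15.3 CPM as the lowest, median and highest naïve values, where naïve 2 and 6 (8.51 and 15.3 CPM) stood above the other 4, all at or below 0.859 CPM. In withdrawn 1 to 5 it was 35.4, 0.895, 15.9, 84.5 and 6.79 CPM. Thus 3 of 5 withdrawn mice exceeded all naïve mice, the groups overlapped, and withdrawn 4 alone held 58.9% of the summed withdrawn level. The naïve mean was 4.25 ± 6.32 CPM (SD, n = 6), against 28.7 ± 33.8 CPM (SD, n = 5) after withdrawal, and the log2 fold change was 2.74 (SE 1.26, edgeR adjusted p = 0.686). Without withdrawn 4 it was 1.78 (adjusted p = 0.997), and without the 3 mice with conflicting labels 2.06 (adjusted p = 0.848). With fewer than 10 counts in naïve 1, 3, 4 and 5, Pdgfrb passed the filter only through its withdrawn counts, so its direction was partly fixed. The highest values fell on the mice with high fibroblast marker sums (withdrawn 1, 3 and 4). Withdrawn 4 also had the highest endothelial (1170.7 CPM) and mural (185 CPM) sums of all mice, and naïve 2 and 6 were among the mice high in both. The part of these markers in the Pdgfrb difference was not tested.

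Pdgfra (chr5:75152292-75198215, plus strand), the receptor that marks oligodendrocyte precursors and is also borne by fibroblasts, had 0, 1.98 and 6.56 CPM as the lowest, median and highest naïve values. In withdrawn mice it was 4.03, 0, 5.75, 17.1 and 7.57 CPM. Withdrawn 4 and 5 exceeded all naïve mice, and withdrawn 2 was without a count. The log2 fold change was 1.31 (SE 1.16, edgeR adjusted p = 0.883), from 2.76 ± 2.56 (SD, n = 6) to 6.89 ± 6.35 CPM (SD, n = 5), and it was -0.46 without the 3 mice with conflicting labels. The summed oligodendrocyte precursor markers were at 5.89 to 19.4 CPM in naïve and 9.02 to 25 CPM in withdrawn mice, and 3 of their 8 genes passed the filter. Pdgfra shares 456 and 166 of its 10024 exon bases with the opposite-strand genes Gm42802 and Gm42803, and 30 with Mir7025.

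Vegfa (chr17:46016993-46032369, minus strand), the principal endothelial mitogen, was detected in every mouse, and its groups overlapped. Naïve mice had 7.11, 20.2 and 24.1 CPM as the lowest, median and highest values, and withdrawn mice 16.1, 25.4, 16.4, 11.4 and 25.1 CPM. The lowest was naïve 5, and withdrawn 2 and 5 lay just above the highest naïve mouse. With means of 17.9 ± 6.78 (SD, n = 6) and 18.9 ± 6.14 CPM (SD, n = 5), the log2 fold change was 0.08 (SE 0.37, edgeR adjusted p = 0.984; 0.16 without the 3 mice with conflicting labels), a value whose sign changed under 4 of 20 alternative settings.

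Kdr (chr5:75932827-75978458, minus strand), the main receptor for Vegfa on endothelial cells, was spread widely within both groups. Its lowest, median and highest naïve values were 0, 5.95 and 25.9 CPM. In withdrawn mice it was 0.144, 3.02, 0.327, 23.4 and 3.89 CPM. Withdrawn 4 held 76.0% of the summed withdrawn level and naïve 2 held 53.0% of the naïve level, so that 1 mouse set the mean of each group. The log2 fold change was -0.42 (SE 1.26, edgeR adjusted p = 0.972), from 8.15 ± 9.42 (SD, n = 6) to 6.15 ± 9.76 CPM (SD, n = 5). It was 0.41 without naïve 2, -2.13 without withdrawn 4 and -2.45 (adjusted p = 0.84) without the 3 mice with conflicting labels. Naïve 2 and withdrawn 4 were also among the 4 mice with the highest endothelial marker sums. The others of those 4, naïve 1 and 6, had 3.44 and 8.46 CPM of Kdr. Naïve 3, with an endothelial sum of 181 CPM, had 9.09 CPM.

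Of the angiopoietins, Angpt2 was the only one of the 10 genes whose groups did not overlap, against 0.690% of all tested genes (118 genes) that were higher in every withdrawn mouse than in every naïve mouse. It lies at chr8:18690263-18741562 on the minus strand, within the span of Mcph1 on the opposite strand but with no shared exon base. Naïve 1 to 6 had 0.322, 0.329, 2.06, 1.63, 0.542 and 0.185 CPM, from 3 to 28 counts. Withdrawn 1 to 5 had 7.56, 16.3, 2.24, 8.48 and 3.18 CPM, from 45 to 146 counts. With fewer than 10 counts in naïve 1, 2, 5 and 6, Angpt2 passed the filter only through its withdrawn counts. Its direction and the separation of its groups were therefore partly fixed. The gap between the groups was narrow, since withdrawn 3 (2.24 CPM) lay just above naïve 3 (2.06 CPM), while the medians were 7.56 and 0.436 CPM. The means of 0.845 ± 0.796 (SD, n = 6) and 7.56 ± 5.60 CPM (SD, n = 5) corresponded to a log2 fold change of 3.15 (SE 0.83). The edgeR adjusted p was 0.236, whereas DESeq2 gave 3.22 (SE 0.72) with an adjusted p of 0.00169. Across the alternative settings the log2 fold change was 2.63 to 3.75 and the adjusted p 0.00169 to 0.788, with 3.75 (adjusted p = 0.647) without the 3 mice with conflicting labels and 2.63 (adjusted p = 0.284) without withdrawn 2. Angpt2 was highest in withdrawn 2, the withdrawn mouse with the lowest fibroblast marker sum (42.3 CPM) and no Tek count, and its endothelial marker sum was 242 CPM. Naïve 6, with an endothelial marker sum of 1086.6 CPM, had the lowest Angpt2 of all mice. The naïve mice with the most Angpt2 were naïve 3 and 4, which also had the highest naïve fibroblast marker sums (84.8 and 80.7 CPM). Withdrawn 1 and 4 were high in both, but withdrawn 3, with a fibroblast sum of 881 CPM, had the least Angpt2 of the withdrawn mice. The part of these markers in the Angpt2 difference was not tested.

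Angpt1 (chr15:42424723-42676977, minus strand), the activating ligand of Tek, had 0, 3.75 and 6.84 CPM as the lowest, median and highest naïve values, and 5.98, 8.62, 5.28, 24.8 and 3.82 CPM in withdrawn mice. Withdrawn 4 held 51.2% of the withdrawn sum, withdrawn 2 also exceeded all naïve mice, and the other 3 fell within the naïve range. The log2 fold change was 1.38 (SE 0.88, edgeR adjusted p = 0.816), from 3.71 ± 2.39 (SD, n = 6) to 9.71 ± 8.63 CPM (SD, n = 5), and it was 0.68 (adjusted p = 0.997) without withdrawn 4 and 0.92 without the 3 mice with conflicting labels. Exon bases shared with the antisense gene Gm17473 number 737 of 5205.

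Tek (chr4:94739289-94874976, plus strand), the angiopoietin receptor, had 21.3, 27.6, 2.06, 2.21, 0 and 19.9 CPM in naïve 1 to 6 and 0, 0, 0.280, 34.2 and 7.64 CPM in withdrawn 1 to 5. The high mice were naïve 1, 2 and 6 and withdrawn 4, which were also the 4 mice with the highest endothelial marker sums. Withdrawn 4 held 81.2% of the summed withdrawn level. The log2 fold change of -0.54 (SE 1.52, edgeR adjusted p = 0.970) became -2.59 (adjusted p = 0.997) without that mouse, and means of 12.2 ± 12.1 (SD, n = 6) and 8.42 ± 14.8 CPM (SD, n = 5) differed by less than the spread within either group. Without the 3 mice with conflicting labels only withdrawn 1 and 2 remained, both with 0 counts, which allows up to 0.216 and 0.336 CPM. No fold change is given for that setting, in which Tek was lower in withdrawn mice at an unadjusted p of 0.00835 and an edgeR adjusted p of 0.654.

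**Figure D2:**
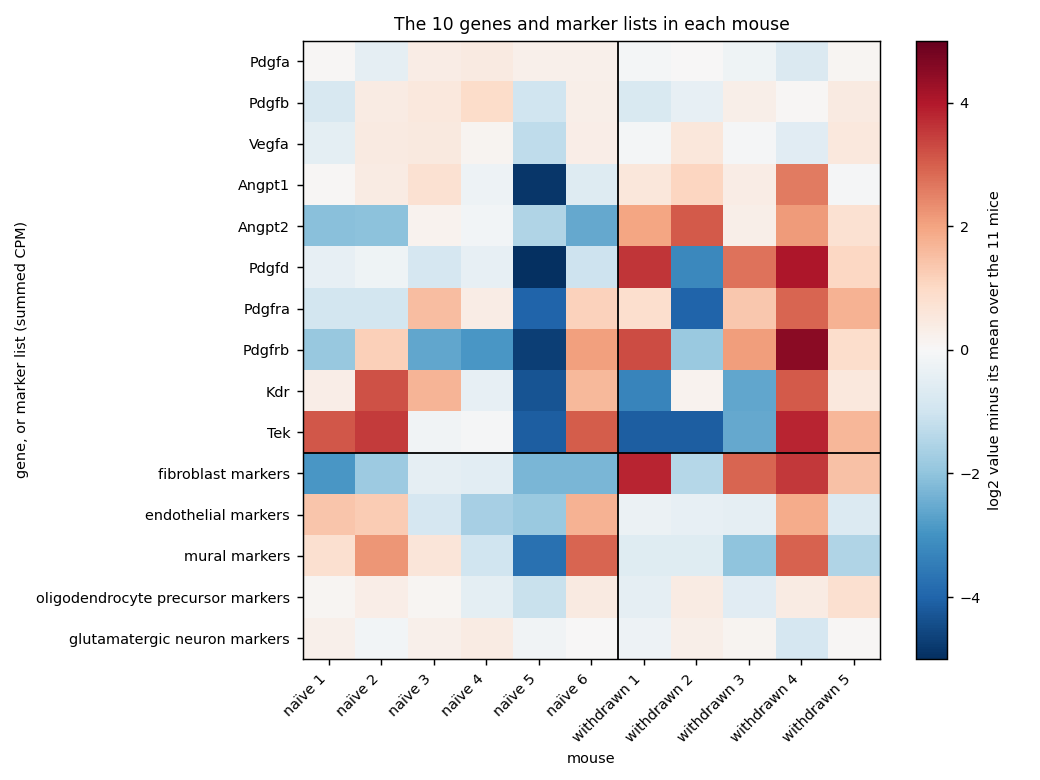
The 10 genes and the summed marker lists in each of the 11 mice, coloured by the log2 value minus the row's mean over the mice. Pdgfd and Pdgfrb are high in withdrawn 1, 3 and 4 with the fibroblast markers. Tek is high in withdrawn 4 and in naïve mice with high endothelial markers, and Kdr is highest in naïve 2 and withdrawn 4. Angpt2 is higher in withdrawn mice, but withdrawn 3 lies only just above naïve 3.

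Genes of the group fell into sets that went up and down together from mouse to mouse. After subtracting the mean of each group, the correlation of log2 CPM over 11 mice was highest for Pdgfd with Pdgfra (r = 0.86), then Tek with Kdr (0.82), Angpt1 with Kdr (0.80), Pdgfd with Pdgfrb (0.77), and Pdgfra with Pdgfrb and Pdgfrb with Tek (0.67 each). Over all 45 pairs r ran from -0.61 to 0.86, and 10 pairs were above 0.6. These are descriptions over mice that share depth and sorting, and naïve 5, with no count for 6 of the genes, enters each of them. Pdgfra and Kdr lie 734.6 kb apart on chromosome 5 with Kit as the only coding gene between them. Kit, Csf1r (15.5 kb from Pdgfrb) and Flt3, kinase genes of the same receptor class, had log2 fold changes of 0.63 (SE 0.74), -0.26 (SE 1.59) and 0.45 (SE 0.56).

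The genes most like each member were sought among 16220 genes by the same within-group r over 11 mice. For Pdgfd they included Ccn3 (0.986) and Pdpn (0.982), for Pdgfra they included Pkd2 (0.966) and Serpinh1 (0.963), and for Pdgfrb they were Cxcl12 (0.958), Ugdh (0.958) and Kank2 (0.953). Tek was most like Rgs5 (0.968), one of the mural markers, then Tmem204 (0.958) and Degs2 (0.943). Kdr was most like Foxq1 (0.953), Ednrb (0.932) and Gm15283 (0.931). For Angpt1 they were Hr (0.981), Kif1c (0.973) and Gm37788 (0.970), and for Angpt2 they were Abca8b (0.920), Gm48259 (0.910) and Sptbn4 (0.900). The 3 ligand genes with at least 10 counts in every mouse had other partners: Nr1d1 (0.923), Klhdc8a (0.911) and Pcsk1 (0.907) for Pdgfa, Exoc5 (0.947), Gbf1 (0.943) and Ncapd3 (0.937) for Pdgfb, and Arhgef17 (0.952), Trank1 (0.952) and Mpp2 (0.950) for Vegfa. None of the genes named here was among the 3 nearest of more than 1 of the 10.

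Levels of different genes were compared per kilobase (kb) of exon. In naïve mice the order by the median was Pdgfa (24.4 CPM per kb), Pdgfb (9.77), Vegfa (4.72), Tek (2.34), Pdgfd (1.08), Angpt1 (0.721), Kdr (0.659), Pdgfra (0.197), Pdgfrb (0.121) and Angpt2 (0.118). Only Pdgfa and Pdgfb, among neighbours in that order, had ranges over the 6 naïve mice that did not overlap (14.8 to 28 and 3.81 to 14.6 CPM per kb). Pdgfb exceeded Vegfa in 6 of 6 naïve mice although their ranges overlapped, and below Vegfa no neighbours were separated. In withdrawn mice the order was Pdgfa (18.9 CPM per kb), Pdgfd (11.3), Pdgfb (8.01), Vegfa (3.83), Pdgfrb (2.90), Angpt2 (2.05), Angpt1 (1.15), Pdgfra (0.573), Kdr (0.335) and Tek (0.0595), with no neighbours apart. Pdgfd thus moved from the fifth to the second place and Tek from the fourth to the last, within ranges that overlapped. Per kb of coding sequence the naïve order differed only in its last 2 genes, the Pdgfa and Pdgfb ranges overlapped and those of Pdgfb and Vegfa did not, and in withdrawn mice Pdgfb came before Pdgfd.

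**Figure D3:**
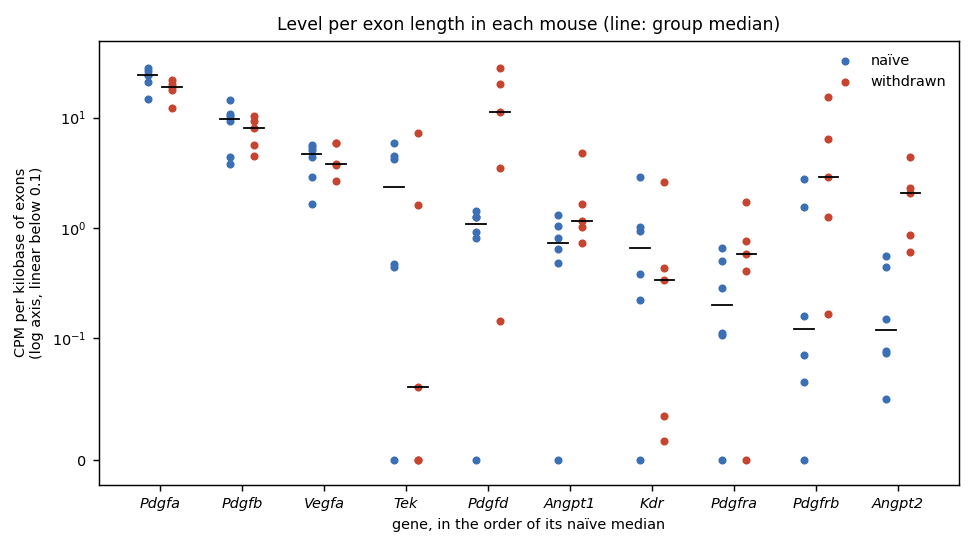
Levels of the 10 genes in CPM per kb of exon, on a log axis that is linear below 0.1, with 1 point per mouse (6 naïve, 5 withdrawn) and a line at each group's median. Pdgfa, Pdgfb and Vegfa lead in naïve mice with medians of 24.4, 9.77 and 4.72 CPM per kb, and Pdgfd lies among them in withdrawn mice with a median of 11.3.

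Further genes of these pathways were examined in lists of 45 genes, of which 41 passed the filter. These lists too were chosen with earlier results of these data known. None was called by edgeR, 22 had log2 fold changes above 0 and 19 below, the median was 0.12, and no gene had groups that did not overlap. At an unadjusted p under 0.05 stood 5 of the 41, all higher in withdrawn mice, against 5.00% of all tested genes in that direction and 7.22% in either. DESeq2 called 1 of the 44 genes it tested, Shc1, against 1.66% of all genes, a count close to the background. By role there was 1 such gene among the 5 ligands tested (3 above 0, 2 below), 1 among the 6 receptors and co-receptors (3 and 3), 1 among the 3 genes of ligand activation (2 and 1), 1 among the 17 signalling proteins (8 and 9) and 1 among the 10 transcription factors (6 and 4).

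The ligand was Pgf, placenta growth factor, which binds the receptor encoded by Flt1. Pgf had 0.469, 2.85 and 8.39 CPM as the lowest, median and highest naïve values and 66.5, 0, 22.2, 42.2 and 17.0 CPM in withdrawn mice (log2 fold change 2.97, SE 1.00, edgeR adjusted p = 0.428). Withdrawn 2 had no count and the other 4 withdrawn mice exceeded every naïve mouse. Nrp1, the neuropilin that serves as co-receptor for VEGF and semaphorins, had 14.0, 23.9 and 71.9 CPM in naïve mice by the same order and 171, 13.5, 125, 131 and 92.5 CPM in withdrawn mice (1.55, SE 0.57, adjusted p = 0.491). F3, the tissue factor that starts coagulation, had 0, 5.84 and 27.8 CPM in naïve mice and 140, 0.112, 147, 394 and 73.4 CPM in withdrawn mice (3.94, SE 1.17, adjusted p = 0.316).

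Shc1, an adaptor that couples activated receptor kinases to Ras, had 0, 4.81 and 6.75 CPM as the lowest, median and highest naïve values and 46.5, 6.27, 57.3, 69.0 and 24.0 CPM in withdrawn mice. Its log2 fold change was 3.39 (SE 0.85, edgeR adjusted p = 0.207), and the DESeq2 adjusted p was 0.00468. Arnt, the partner of the hypoxia-inducible factors, had 12.8, 19.7 and 22.5 CPM in naïve mice and 41.6, 8.51, 40.7, 38.7 and 32.5 CPM in withdrawn mice (0.79, SE 0.36, edgeR adjusted p = 0.679). In all 5 of these genes withdrawn 1, 3, 4 and 5 lay above every naïve mouse and withdrawn 2 lay within or below the naïve range, the order seen for Pdgfd and for the fibroblast marker sums, whose part in these values was not tested.

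The other ligand genes of the lists had smaller differences relative to their errors, with log2 fold changes of 0.75 (SE 0.48) for Pdgfc, -0.02 (SE 0.29) for Vegfb, 1.17 (SE 1.04) for Vegfc and -0.44 (SE 0.36) for Vegfd, and Angpt4 did not pass the filter. The endothelial receptors Flt1 and Flt4 had -1.15 (SE 1.20) and -1.62 (SE 1.44), Tie1, the partner of Tek, had 0.25 (SE 1.21), Ptprb, a phosphatase that acts on Tek, had -0.75 (SE 1.17), and Nrp2 had 0.27 (SE 0.37). Flt1 was at 64.5 ± 75.6 CPM in naïve mice (SD, n = 6) and 29.4 ± 46.6 CPM in withdrawn mice (SD, n = 5), and as with Tek its highest mice were naïve 1, 2 and 6 and withdrawn 4.

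**Figure D4:**
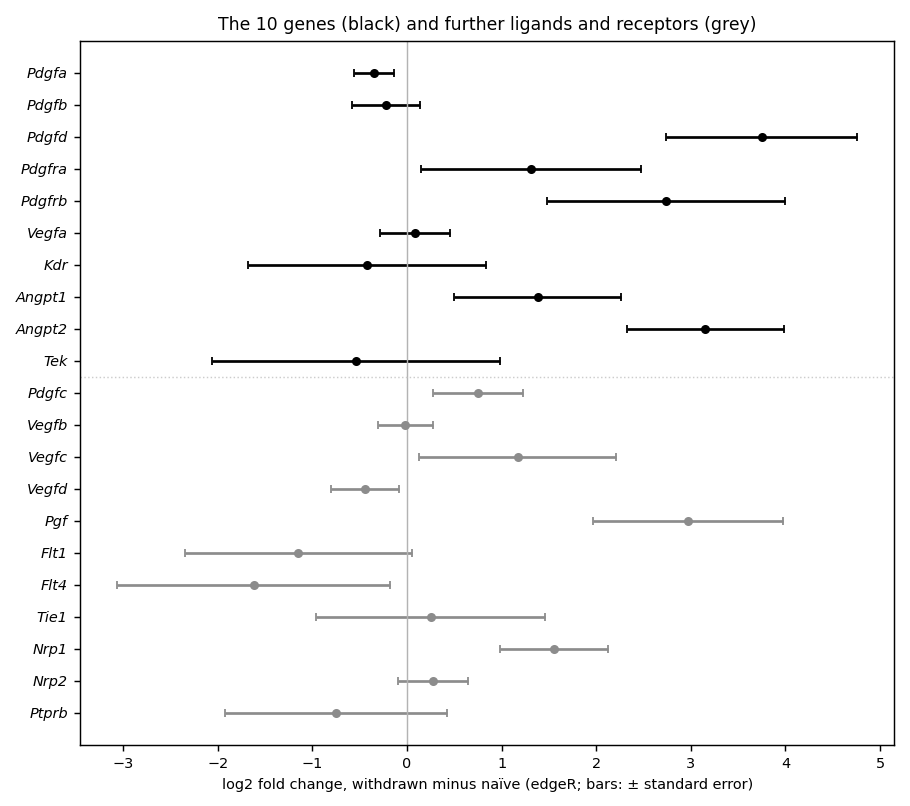
Log2 fold change of withdrawn against naïve mice from edgeR for the 10 genes in black and other ligand and receptor genes of the same families in grey, with bars of ± 1 standard error. Angpt2 (3.15) and Pdgfd (3.75) lie farthest above 0 among the 10, while the bars of Pdgfb, Tek, Kdr and Vegfa include 0. A bar that excludes 0 is not a call, and edgeR called none of the 10.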

How the data were processed

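Each library held the RNA of sorted cells from 1 mouse. The authors trimmed reads with cutadapt, aligned them to GRCm38 with STAR and deposited raw HTSeq counts per gene; the strand setting is not given in the sources used here. Tally rows that name no gene (18.89 to 58.02% of each file) were left out. Symbols and positions came from a GENCODE M21 annotation. Counts were tested with edgeR 4.0.16 (quasi-likelihood, TMM scaling, filterByExpr with a minimum count of 10, R 4.3.3) over all 17093 genes, with Benjamini-Hochberg adjustment, in 6 naïve against 5 withdrawn mice. The alternatives were DESeq2 1.42.0, limma 3.58.1 (voom), other scalings, filters and thresholds, a replicate block, and subsets of mice. Correlations used log2 CPM with a prior count of 2. No 2 libraries of a group had counts within sampling noise. The script was tested on simulated data. The genes and gene lists were chosen with earlier results of these data known. Further pathway genes were named where the unadjusted p was under 0.05 or the groups did not overlap, and for each of the 10 genes the 3 most correlated, of which 2 are not reported here. Promoters were from RefSeq and matched 6 of the 10 genes (Pdgfa, Pdgfd, Pdgfra, Tek, Vegfa and Kdr).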

Additional observations from a re-analysis of the deposited data

Results flagged for a closer look

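Among 20 sets of values (the 10 genes in each group), 2 had a mouse far from the rest of its group by Dixon's criterion, where chance gives about 1. In both the mouse was naïve 5, which had no count for the gene. Its log2 CPM was -2.80 for Pdgfd, with a gap to the nearest naïve mouse of 0.841 of the group's range, and -2.80 for Angpt1, with a gap of 0.747. Without naïve 5 the log2 fold change was 3.49 for Pdgfd and 1.13 for Angpt1, and neither passed the test in edgeR (adjusted p = 0.178 and 0.712).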

How the results depend on the processing

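The number of genes called across the transcriptome, 1 at the main settings, was 362 with DESeq2, 137 with no low-count filter, 30 among genes with at least 10 counts in every mouse, 37 with the limit on the adjusted p raised to 0.1, and 0 without the 3 mice with conflicting labels. Leaving out 1 mouse at a time gave 0 to 193, with 193 without withdrawn 2 and 6 without naïve 2. Of the 10 genes, 0 were called at the main settings, 2 with DESeq2 (Pdgfd and Angpt2), 1 with no low-count filter (Pdgfd), and 0 to 1 on leaving out each mouse (Pdgfd without withdrawn 2). The number at an unadjusted p under 0.05, 3 at the main settings, was 2 to 4 on leaving out each mouse and 0 at 10 counts in every mouse, where only Pdgfa, Pdgfb and Vegfa remained to be tested; without the 3 mice with conflicting labels it was also 3, but Angpt2, Pdgfd and, in the lower direction, Tek. The number with groups apart was 1 to 2 on leaving out each mouse. The median log2 fold change of 0.70 was 0.44 to 0.92 on leaving out each mouse, -0.18 at 10 counts in every mouse and -0.07 without the 3 mice with conflicting labels. Signs changed for Vegfa with voom (-0.16) and without naïve 5 (-0.08), withdrawn 2 (-0.05) or withdrawn 5 (-0.06), in a range of -0.08 to 0.22 on leaving out each mouse, for Pdgfra without the 3 mice (-0.46) and for Kdr without naïve 2 (0.41, with -2.13 at the other end of the range). Of 193 comparisons of a gene's fold change with an alternative, 183 kept direction and call, 4 newly passed and 6 changed sign. Replicate numbers do not pair the animals (correlations of deviations from -0.2 to 0.182 over 5 numbers), and a replicate block called 0 genes and 0 of the 10. Beyond the alternative's own construction, the cause of these changes was not tested. At these depths 3 counts correspond to 0.14 to 0.369 CPM, so naïve Angpt2, at 0.185 to 2.06 CPM, was near the floor in some mice.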
